A study of Mus musculus with 16 samples.

Results

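The genes described here are 10 enzymes of tryptophan breakdown and NAD synthesis, Tdo2, Afmid, Kmo, Kynu, Haao, Acmsd, Qprt, Nampt, Nmrk1 and Nmrk2, out of 55385 genes in the short-read RNA-Seq count table of a mouse fasting study. They were taken from the table by symbol, and they were chosen by their measured difference between the fasting and the fed libraries, so that difference is described below and not tested. Male C57BL/6 mice, bought at 12 weeks of age, were either fed freely (fed) or deprived of food for 24 h (fasting), with 3 mice per group, and were killed at 10 am. Equal parts of tissue from the 3 mice of a group were pooled, and each of 8 tissues (liver, kidney, muscle, heart, brown adipose, white adipose, lung and spleen) gave 1 library per treatment, 16 in all. All mice were of the same strain and sex, and no value has a replicate error, because the 2 libraries of a tissue are 2 pools.

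Cells make NAD, the electron carrier that sirtuins and PARPs also consume, by several routes. In the de novo route, tryptophan is opened to kynurenine and then carried through further oxidations to quinolinate, which is turned into NAD precursors. The liver is known for running this route in full, the kidney for a large part of it, and most other tissues for relying on salvage of nicotinamide or on phosphorylation of nicotinamide riboside. In the list above, Tdo2 opens the ring of tryptophan, and Afmid hydrolyses the product to kynurenine. Kmo hydroxylates kynurenine, Kynu cleaves off alanine, and Haao opens the ring of hydroxyanthranilate. At that point Acmsd takes the intermediate away from NAD, whereas Qprt converts quinolinate into the first mononucleotide of the NAD route. Nampt is the rate-limiting enzyme of nicotinamide salvage, and Nmrk1 and Nmrk2 are the kinases of nicotinamide riboside.

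Levels are CPM, the counts of a gene scaled to the total of its library. The fold change is log2 of fasting over fed after adding 0.01 CPM to each, and a gene was called in a tissue when this was above 0.5 in size and 1 of the 2 libraries held at least 1 CPM. Each interval is an exact 95% binomial interval and covers counting error only. Library totals lay between 14245178 and 36069968 counts, so 3 counts, taken as the floor, corresponded to 0.0832 to 0.211 CPM. Every labelled tissue held its own markers, for example a summed 104568 CPM of 6 hepatocyte genes in fed liver and 34151 CPM of 6 proximal tubule genes in fed kidney. The fasting library of white adipose stood apart, since 7 of 8 genes of multiciliated epithelium, a list chosen after the values were seen, were higher there, and their sum went from 55.9 to 602 CPM. The 4 pancreatic acinar markers summed to 229 CPM in fed and 11.4 CPM in fasting spleen, and to 56.4 and 96.8 CPM in liver, where 3 of 4 were higher, and their part in the liver values below was not tested. In a bulk library, fewer cells of a type and less RNA per cell cannot be told apart.

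Of the 80 pairs of a gene and a tissue, 60 reached 1 CPM, and 12 of them were called higher and 12 lower in the fasting library. Over all genes the shares were 10.2% higher and 13.3% lower of 126755 such pairs, against 20.0% and 20.0% here, which describes how the genes were chosen. White adipose had 4 genes called higher and 0 lower of 8 at 1 CPM, where 22.5% and 10.9% of all genes were called. Muscle had 0 higher and 4 lower of 7, beside 9.39% and 20.3% of all genes, and with a pseudocount of 1 CPM Nmrk2 alone remained called there, since Afmid (-0.41), Kmo (-0.31) and Qprt (-0.39) were not. In kidney 1 was higher and 3 were lower of 8, beside 6.56% and 9.08%. In heart 3 were higher and 2 lower of 7, beside 10.1% and 14.8%. Brown adipose had 2 higher and 0 lower of 6, beside 12.3% and 17.8%, and lung had 1 higher and 2 lower of 7, beside 5.27% and 12.3%. Liver had 1 higher and 1 lower of 9, beside 9.32% and 19.7%. In spleen 0 of 8 were called in either direction, beside 5.99% and 4.47%.

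**Figure D1:**
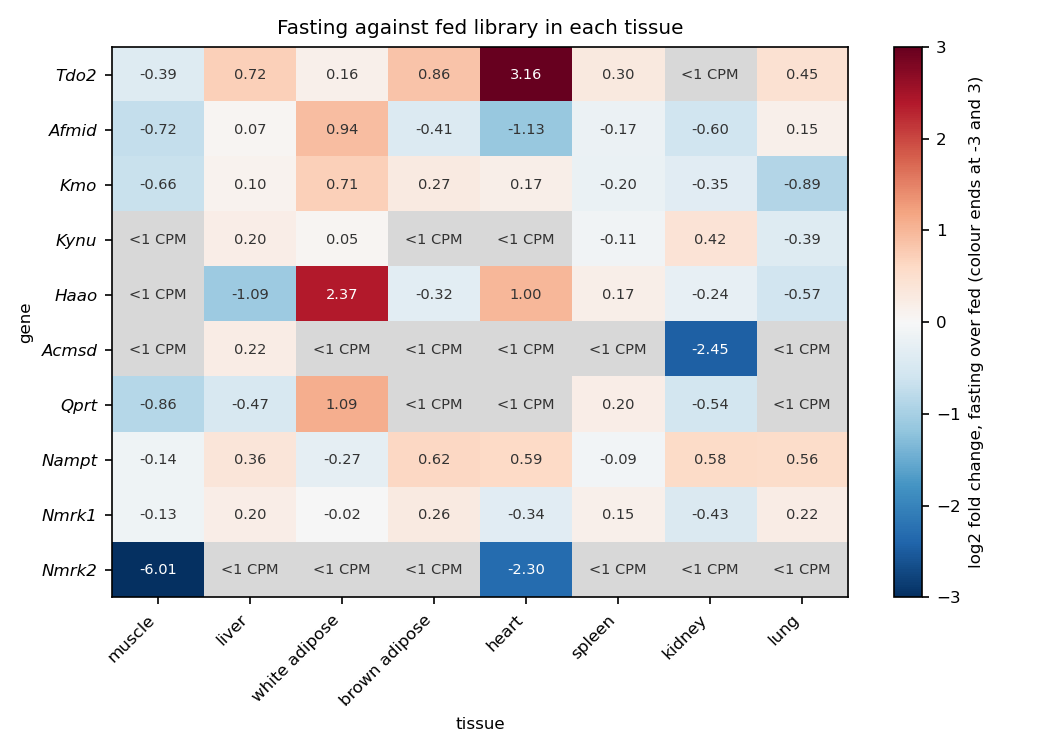
Log2 fold change of fasting over fed for each of the 10 genes (rows) in each of the 8 tissues (columns), 1 library per treatment, with grey cells where both libraries lay under 1 CPM. The darkest blue cells are Nmrk2 in muscle (-6.01), Acmsd in kidney (-2.45) and Nmrk2 in heart (-2.30), and the darkest red cells are Tdo2 in heart (3.16, from 2 and 17 counts, or 0.92 with a pseudocount of 1 CPM) and Haao in white adipose (2.37).

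Upstream sequences of 2 genes are shown because the description of fasting turns on their values. Among the 10 genes, Nmrk2 has the largest difference in muscle, and Nampt was called in 4 tissues. They are RefSeq sequences of GRCm38.p6, written 5′ to 3′ on the strand of the gene with annotated exon bases left out. Capitals mark matches to the motifs searched on both strands in the 250 bases before each start.
Nampt, chr12:32820085-32820334, plus strand: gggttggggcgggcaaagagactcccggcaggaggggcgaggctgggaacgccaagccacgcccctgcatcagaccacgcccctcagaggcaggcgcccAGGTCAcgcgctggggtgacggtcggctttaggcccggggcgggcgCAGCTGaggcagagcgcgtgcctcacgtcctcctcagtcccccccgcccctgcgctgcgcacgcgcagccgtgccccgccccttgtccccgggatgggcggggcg
Nmrk2, chr10:81202052-81202287, minus strand: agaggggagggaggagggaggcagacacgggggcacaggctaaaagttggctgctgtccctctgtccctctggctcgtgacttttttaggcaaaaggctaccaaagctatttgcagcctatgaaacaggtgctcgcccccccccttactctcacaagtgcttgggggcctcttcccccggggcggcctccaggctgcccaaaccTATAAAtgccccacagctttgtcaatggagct
The capitals in Nampt are AGGTCA, the core hexamer bound by many nuclear receptors, 151 bases before the start, and CAGCTG, an E box of the kind bound by myogenic factors, 105 bases before it. The stretch of Nampt falls inside the longer GENCODE gene. Nmrk2 has TATAAA, the TATA box letters, 46 bases before the start. AGGTCA was found in 14.0%, CAGCTG in 13.0% and TATAAA in 12.4% of 32851 promoter windows of the same length.
Neither of these windows held GTAAACA (FoxO), AGAACA (the core of glucocorticoid receptor sites), CACGTG (the E box of clock factors) or TGACGTCA (the cAMP response element), which occur in 3.17%, 16.1%, 6.02% and 1.55% of windows. Of the 10 genes, 9 had a promoter entry, and Kynu had none. Among the genes not shown, AGAACA was found in the window of Haao, 164 bases before the start. AGGTCA was found in those of Tdo2, Haao and Acmsd, CAGCTG in that of Qprt and TATAAA in that of Tdo2. Of these matches, only the one in Acmsd lay in the part of its window free of annotated exons.

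Tdo2 (ENSMUSG00000028011.16, chr3:81957090-81976202, minus strand) had a level in fed liver 358-fold above that in the next fed tissue, the largest such factor among the 10 genes. Its level in liver was 1552 CPM in the fed and 2553 CPM in the fasting library, which is 0.72 on the log2 scale with an interval of 0.70 to 0.74. Everywhere else it stayed at or under 5.48 CPM. The next highest tissues were brown adipose, with 3.01 CPM fed and 5.48 CPM fasting (log2 0.86), and white adipose, with 4.34 and 4.85 CPM. These adipose ranges overlap. In heart the counts were 2 and 17, or 0.116 and 1.11 CPM, a log2 fold change of 3.16 with an interval of 1.19 to 6.42, and 0.92 with a pseudocount of 1 CPM. Both called differences outside liver therefore rest on few reads. All 6 hepatocyte markers were also higher in the fasting heart library, with a sum of 30.1 CPM fed and 95.8 CPM fasting, and albumin (Alb) at 14.0 and 51.4 CPM. In brown adipose 1 of the 6, Cyp2e1, was called higher, at 108 and 212 CPM, and the sums were 281 and 410 CPM, while Alb was at 105 and 123 CPM. Cyp2e1 is not particular to liver here, since fed white adipose held 2393 CPM. The part of hepatocyte RNA in these values of Tdo2 was not tested. Spleen, with 2.38 and 2.95 CPM, muscle, with 1.79 and 1.36 CPM, and lung, with 1.30 and 1.77 CPM, differed by less than the threshold. Kidney, with 0.490 and 0.194 CPM, overlapped heart at the low end.

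Afmid (ENSMUSG00000017718.15, chr11:117825924-117839908, plus strand) was highest in liver, with 43.4 CPM fed and 45.5 CPM fasting, and lay next in kidney, with 33.5 and 22.1 CPM. The kidney difference was called, at -0.60 (-0.76 to -0.44). Spleen followed with 11.6 and 10.3 CPM, without overlap with kidney. The other 5 tissues held at most 4.45 CPM, and among them the order is not clear, since white adipose overlaps lung and heart overlaps brown adipose. Afmid was called higher in fasting white adipose (2.32 to 4.45 CPM, log2 0.94) and lower in fasting heart (3.02 to 1.38 CPM, log2 -1.13) and muscle (1.66 to 1.002 CPM, log2 -0.72). The fed and fasting counts were 54 and 122 in white adipose, 52 and 21 in heart, and 40 and 31 in muscle. Their intervals were 0.47 to 1.43, -1.94 to -0.38 and -1.45 to -0.02, and each reaches inside the threshold. Afmid shares 44.3% of its exon bases with a same-strand gene model, Gm20708, that had 0 counts in all libraries, so reads in the shared part may be missing from its level. On the opposite strand, Tk1 overlaps 83 bases of Afmid. Tk1 was highest in fed spleen, at 31.8 CPM, and its part in the level of Afmid was not tested.

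**Figure D2:**
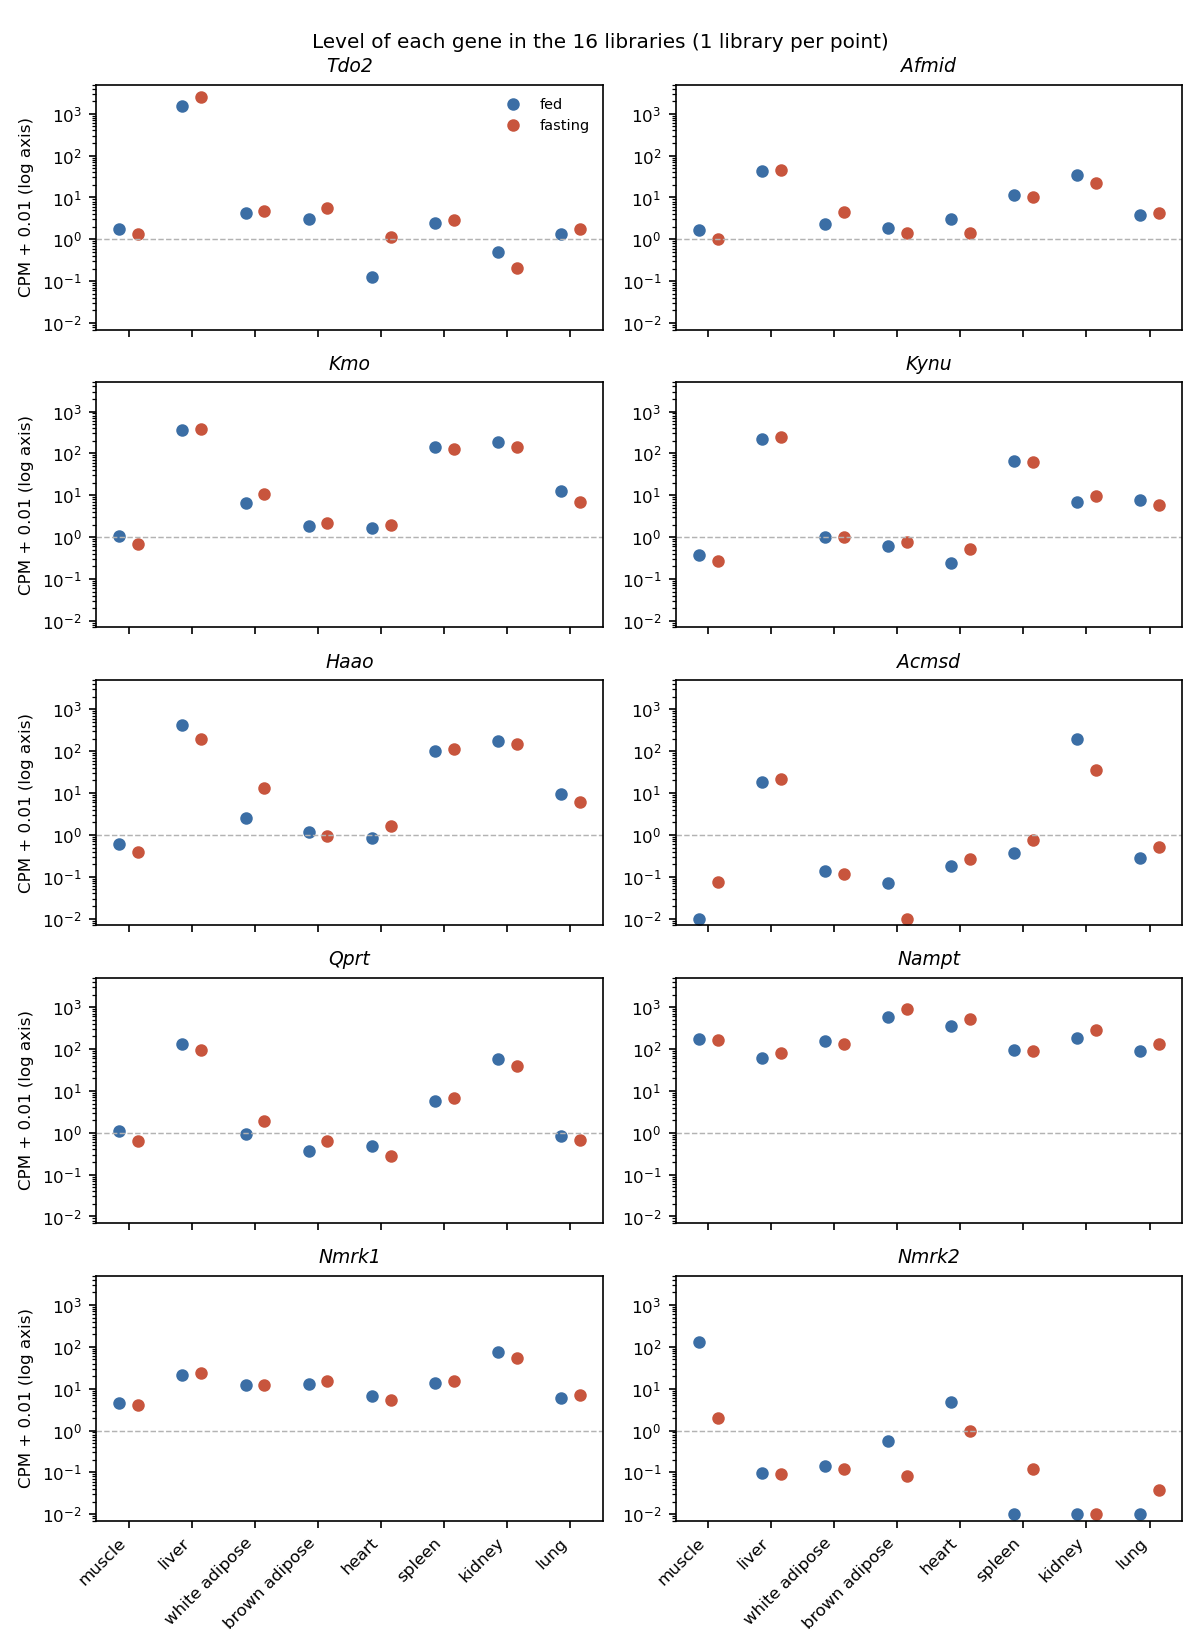
CPM plus 0.01 on a log axis for each gene (panels) in each tissue (horizontal axis), with 1 point per library, fed in blue and fasting in red, and a dashed line at 1 CPM. Liver stands far above the other tissues for Tdo2 (1552 and 2553 CPM), kidney leads for Acmsd (194 and 35.4 CPM), and Nampt lies above 60 CPM in all 16 libraries.

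Kmo (ENSMUSG00000039783.15, chr1:175620381-175662116, plus strand) had 366 CPM in fed and 392 CPM in fasting liver, 184 and 144 CPM in kidney, and 143 and 125 CPM in spleen. These 3 tissues stood in that order without overlap, though the lowest kidney and the highest spleen library differed by a factor of only 1.01. The remaining tissues were at least 9.76-fold below the lowest spleen library. Lung had 12.8 CPM fed and 6.90 CPM fasting, a log2 fold change of -0.89 (-1.12 to -0.65). White adipose went the other way, from 6.70 to 10.97 CPM, a log2 fold change of 0.71 (0.43 to 1.001). In lung the 3 B cell markers were all lower in the fasting library (summed 114 and 55.1 CPM), as were the 3 cardiomyocyte markers (816 and 411 CPM), while 6 macrophage markers summed to 370 and 362 CPM with none called. Of the 5 neutrophil markers 3 were lower and 1 was higher in fasting lung, with sums of 87.6 and 60.5 CPM. The part of all these cells in the lung values was not tested. Muscle, at 1.08 and 0.679 CPM, was called lower on 26 and 21 counts, and its interval (-1.57 to 0.22) includes 0.

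Kynu (ENSMUSG00000026866.16, chr2:43555329-43682715, plus strand) was not called in any tissue. It had 221 and 254 CPM in fed and fasting liver (log2 0.20) and 66.2 and 61.3 CPM in spleen (log2 -0.11). Liver exceeded spleen by 3.34-fold between the nearest libraries, and spleen exceeded kidney by 6.53-fold. Kidney (7.04 and 9.39 CPM, log2 0.42) and lung (7.72 and 5.88 CPM, log2 -0.39) overlapped. White adipose held 0.988 and 1.02 CPM, and muscle, brown adipose and heart stayed under 1 CPM. Spleen thus ranked above kidney for Kynu, whereas kidney ranked above spleen for Afmid, Kmo, Haao and Qprt.

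Haao (ENSMUSG00000000673.9, chr17:83831156-83847963, minus strand) had opposite differences in liver and white adipose. In liver it was 413 CPM fed and 194 CPM fasting, a log2 fold change of -1.09 (-1.14 to -1.04). The fasting liver library then lay close to kidney, which had 174 CPM fed and 147 CPM fasting. Spleen held 103 and 116 CPM and was not called. White adipose had 2.49 CPM fed and 12.9 CPM fasting, or 58 and 355 counts, a log2 fold change of 2.37 (1.97 to 2.80). This was the library with the ciliated epithelium genes, and in it 2 of 6 proximal tubule genes were also higher, with a sum of 65.3 and 742 CPM. Most of that sum is Lrp2, an endocytic receptor of several epithelia, at 34.9 and 710 CPM, while Kap, which is abundant in mouse kidney, was at 20.4 and 18.2 CPM. Epcam, a general epithelial marker, was at 1.16 and 59.7 CPM. The part of epithelial RNA in the white adipose values of Haao, Kmo, Afmid and Qprt was not tested.

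Lung had 9.28 and 6.27 CPM of Haao (log2 -0.57, and not called at -0.48 with TMM factors), and heart had 0.813 and 1.64 CPM (log2 1.002, 0.01 to 2.07). The heart value rests on 14 and 25 counts, in the library pair in which all 6 hepatocyte markers were higher in fasting (30.1 and 95.8 CPM), and their part in it was not tested. Brown adipose (1.14 and 0.913 CPM) and muscle (0.581 and 0.388 CPM) were not called. Per kb of gene length, the level of Haao over that of Kmo was 1.14 in fed and 0.50 in fasting liver, and 0.375 in fed and 1.19 in fasting white adipose. In kidney this ratio was 0.953 and 1.03.

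Acmsd (ENSMUSG00000026348.7, chr1:127729413-127767978, plus strand) was seen at 1 CPM or more only in kidney and liver. Kidney had 194 CPM in the fed and 35.4 CPM in the fasting library, from 4348 and 913 counts. The log2 fold change was -2.45 (-2.56 to -2.35), a level 5.47-fold lower in the fasting library. Liver held 18.6 and 21.7 CPM (log2 0.22), so the fasting kidney library was still 1.63-fold above the higher liver library. The other 6 tissues lay at or under 0.755 CPM, which is 21 counts in fasting spleen. In kidney, 1 of 6 proximal tubule genes was called lower, and their sum was 34151 CPM fed and 29279 CPM fasting. Of the 6 hepatocyte markers 4 were lower in fasting kidney, with Alb at 32.2 and 7.57 CPM and the sum at 2651 and 3103 CPM. The part of hepatocyte RNA in the kidney values of Acmsd was not tested. Of the 4 acinar markers 1, Cela1, reached 1 CPM in kidney, at 58.1 and 22.8 CPM. The others stayed under 1 CPM in both kidney libraries, and the part of acinar RNA was not tested. An antisense gene that overlaps 94 bases of Acmsd never passed 0.702 CPM.

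Qprt (ENSMUSG00000030674.5, chr7:127107114-127122226, minus strand) held 130 and 93.5 CPM in fed and fasting liver (log2 -0.47), just inside the threshold. Kidney, with 57.4 and 39.5 CPM, was just beyond it (log2 -0.54, -0.66 to -0.42), and within it with TMM factors (-0.49) or DESeq2 size factors (-0.48). Spleen followed with 5.74 and 6.61 CPM, and liver, kidney and spleen did not overlap. White adipose was called higher (0.902 to 1.93 CPM, log2 1.09) and muscle lower (1.12 to 0.614 CPM, log2 -0.86, -1.80 to 0.03). These 2 rest on 21 to 53 and 19 to 27 counts. Per kb, Acmsd over Qprt was 3.15 in fed and 0.838 in fasting kidney, and 0.134 in fed and 0.217 in fasting liver. The transcript of the enzyme leading away from NAD thus exceeded that of the enzyme leading to it in fed kidney and not in the other 3 of these 4 libraries.

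Nampt (ENSMUSG00000020572.8, chr12:32819545-32853349, plus strand) was the gene with the most even distribution over tissues. Its highest fed tissue was 9.38-fold above its lowest, where Tdo2 had a factor of 13359. Brown adipose had 582 CPM fed and 896 CPM fasting, heart 355 and 533 CPM, kidney 188 and 282 CPM, and lung 89.8 and 132 CPM. These 4 tissues were called, at log2 0.62, 0.59, 0.58 and 0.56, and each rests on at least 2698 counts per library. They lie just beyond the threshold, and the interval for lung (0.49 to 0.63) reaches under it. Liver lay within it, at 62.0 and 79.9 CPM (log2 0.36, 0.27 to 0.46). Spleen (93.2 and 87.5 CPM), muscle (178 and 161 CPM) and white adipose (157 and 130 CPM) were lower in the fasting library by less than the threshold. Brown adipose ranked first without overlap with heart, and liver ranked last without overlap with spleen. In the brown adipose pair all 5 skeletal muscle markers (summed 2220 and 1039 CPM) and 2 of 3 B cell markers were lower in fasting. The 2 brown adipocyte markers summed to 4970 and 4380 CPM with none called. The part of these cells in the brown adipose values of Nampt was not tested.

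Nmrk1 (ENSMUSG00000037847.14, chr19:18631950-18652428, plus strand) was measured at 1 CPM or more in all 8 tissues and called in none. Kidney was highest, with 74.5 CPM fed and 55.1 CPM fasting (log2 -0.43, -0.54 to -0.33). Liver followed with 20.9 and 23.96 CPM. Brown adipose, spleen and white adipose lay between 12.1 and 15.5 CPM, and lung, heart and muscle between 4.14 and 7.07 CPM. Its log2 fold changes outside kidney lay between -0.34 in heart and 0.26 in brown adipose.

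Nmrk2 (ENSMUSG00000004939.7, chr10:81198170-81202051, minus strand), the muscle form of the kinase, had 3116 counts in fed and 62 in fasting muscle. The log2 fold change of -6.01 had an interval of -6.40 to -5.65. In heart it had 84 and 15 counts, or 4.88 and 0.983 CPM, a log2 fold change of -2.30 (-3.21 to -1.51). Fasting muscle, at 2.004 CPM, thus lay inside the range of heart. Brown adipose had 9 and 1 counts, and there the 5 skeletal muscle markers were all lower in the fasting library, with sums of 2220 and 1039 CPM. In muscle itself these markers summed to 131232 and 130181 CPM with none called. Of the 4 adipocyte markers 2 were lower in fasting muscle, Adipoq at 16.1 and 6.79 CPM and Plin1 at 11.5 and 3.33 CPM. The sums of the 4 were 148 and 151 CPM, mostly Fabp4, at 110 and 132 CPM. Fabp4 is not particular to adipocytes here, since fed heart held 370 CPM of it and 0.871 CPM of Adipoq. The part of adipocytes in the muscle values was not tested. The other 5 tissues had 0 to 3 counts per library, at or under the floor, and get no fold change. Per kb, Nmrk2 over Nmrk1 was 56.9 in fed and 0.964 in fasting muscle, and 1.47 and 0.373 in heart. The antisense gene Atcayos covers 14.6% of Nmrk2 and was at 106 and 126 CPM in muscle and 107 and 133 CPM in heart. In muscle and heart Atcayos was higher in fasting by less than the threshold (log2 0.24 and 0.31), opposite in direction to Nmrk2. In brown adipose Atcayos was at 2.71 and 1.40 CPM, lower in fasting as Nmrk2 was.

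**Figure D3:**
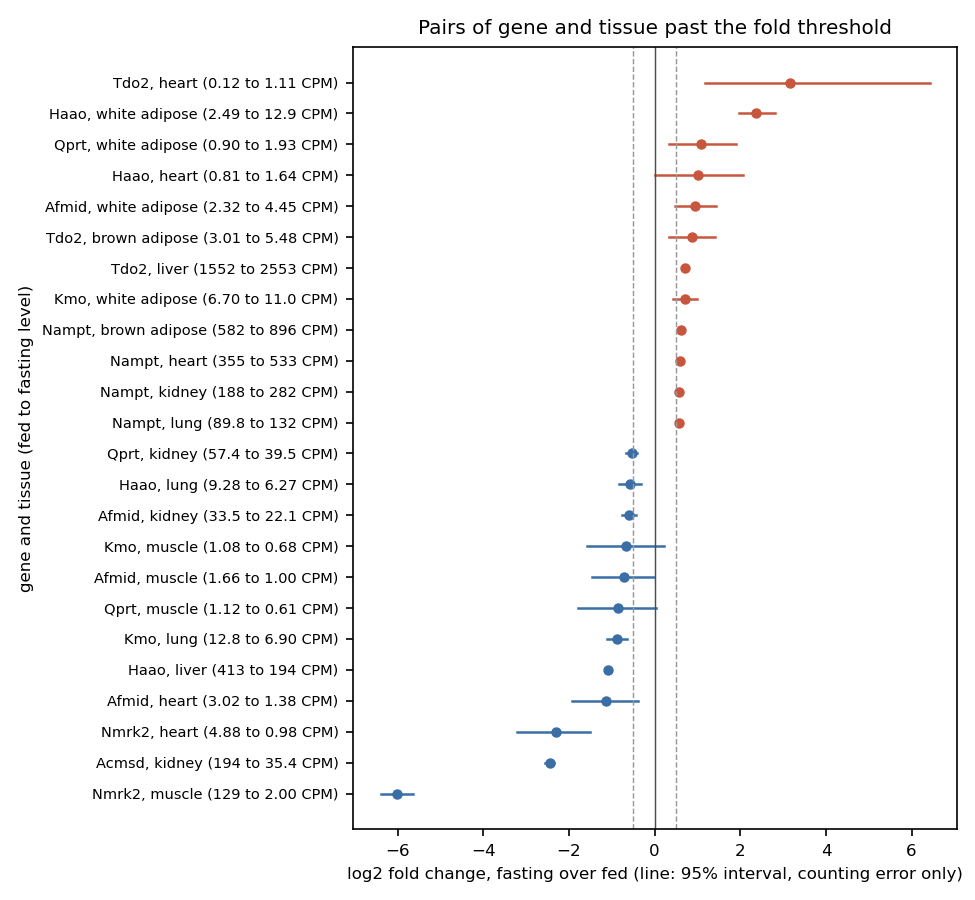
Log2 fold change of fasting over fed for the 24 called pairs of gene and tissue, with the CPM of both libraries in the labels, exact 95% intervals for counting error as lines, and dashed lines at the threshold of 0.5. Intervals are narrow for liver, kidney and Nampt, and wide for genes near 1 CPM, where those of Kmo and Qprt in muscle include 0.

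The tissue differences are not the contrast by which the genes were chosen, and they were tested. All 16 libraries were fitted with edgeR's quasi-likelihood test with treatment as a covariate, so that the fed and the fasting library of a tissue act as its 2 observations, and p-values were adjusted by Benjamini-Hochberg over 23580 genes. A gene was called at an adjusted p under 0.05 and a log2 fold change above 1 in size. All tissues come from the same 2 pools of mice, so p-values measure only the spread between these libraries.

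Against the mean of the other 7 tissues, 8 of the 10 genes were higher in liver and 0 were lower, where 16.3% and 18.4% of all genes were called. The de novo enzymes led, with Tdo2 at log2 11.06 (SE 0.25) and edgeR adjusted p = 1.3e-11. Kynu followed at 7.47 (SE 0.12) with edgeR adjusted p = 1.8e-12. Qprt at 6.72 (SE 0.17), Haao at 6.23 (SE 0.31), Kmo at 6.11 (SE 0.15), Afmid at 4.19 (SE 0.19) and Nmrk1 at 1.71 (SE 0.13) were also called. Nampt had the opposite sign, at -0.84 (SE 0.21) with edgeR adjusted p = 0.00644, short of the fold threshold. At an unadjusted p under 0.05, 1 gene, Nampt, was lower, and DESeq2 called 0 lower. With library totals without TMM 7 were higher and 1 lower, since Nmrk1 (0.96) was lost and Nampt (-1.58) was called, and 1 was lower without spleen or without lung. Acmsd is among the 8, but the tissues other than liver and kidney held 0 to 21 counts of it, so the size of its fitted difference is not exact. Nmrk2, near 0 counts outside muscle and heart, had no usable estimate.

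Kidney against the other 7 tissues gave 7 genes higher and 1 lower, where 18.0% and 11.5% of all genes were called. Acmsd was called with edgeR adjusted p = 2.7e-08, a fitted log2 of 8.39 (SE 0.42) that is not exact because 6 tissues held 0 to 21 counts. Qprt was at 4.52 (SE 0.18), Haao at 4.36 (SE 0.32), Kmo at 3.89 (SE 0.16), Nmrk1 at 2.62 (SE 0.12), Afmid at 2.56 (SE 0.21) and Kynu at 1.09 (SE 0.16). The gene called lower was Tdo2, at -4.09 (SE 0.52) with edgeR adjusted p = 5.2e-05. Kidney held 11 and 5 counts of Tdo2, and the other 7 tissues include liver, at 1552 and 2553 CPM. The size of this value is therefore not exact and depends in part on liver. Heart, with 2 and 17 counts, overlapped kidney. Nampt was not called, at 0.30 (SE 0.19) and edgeR adjusted p = 0.246. The call of Kynu ends when muscle, white adipose, brown adipose or heart is left out of the fit, with values of 0.57 to 0.71 and edgeR adjusted p of 0.00491 to 0.0129.

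Liver against kidney gave 6 genes higher and 0 lower, where 12.5% and 18.2% of all genes were called. Tdo2 differed most, at log2 13.25 (SE 0.66), and Kynu by 5.58 (SE 0.24). Kidney held 11 and 5 counts of Tdo2, so the size of its difference is not exact. Kmo was higher by 1.94 (SE 0.27), Qprt by 1.93 (SE 0.28), Haao by 1.63 (SE 0.52, edgeR adjusted p = 0.0253) and Afmid by 1.43 (SE 0.32). When the fit used library totals without TMM, Haao (0.92) and Afmid (0.70) were no longer called, and 4 genes were higher. Acmsd leaned to kidney, at -1.62 (SE 0.61) with edgeR adjusted p = 0.0506, and its 2 kidney libraries are those that differed by 5.47-fold. Nampt, at -0.99 (SE 0.27), and Nmrk1, at -0.80 (SE 0.19), were also lower in liver without passing the fold threshold. At an unadjusted p under 0.05, 3 genes, Acmsd, Nampt and Nmrk1, were lower in liver, and DESeq2 called 1 lower.

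**Figure D4:**
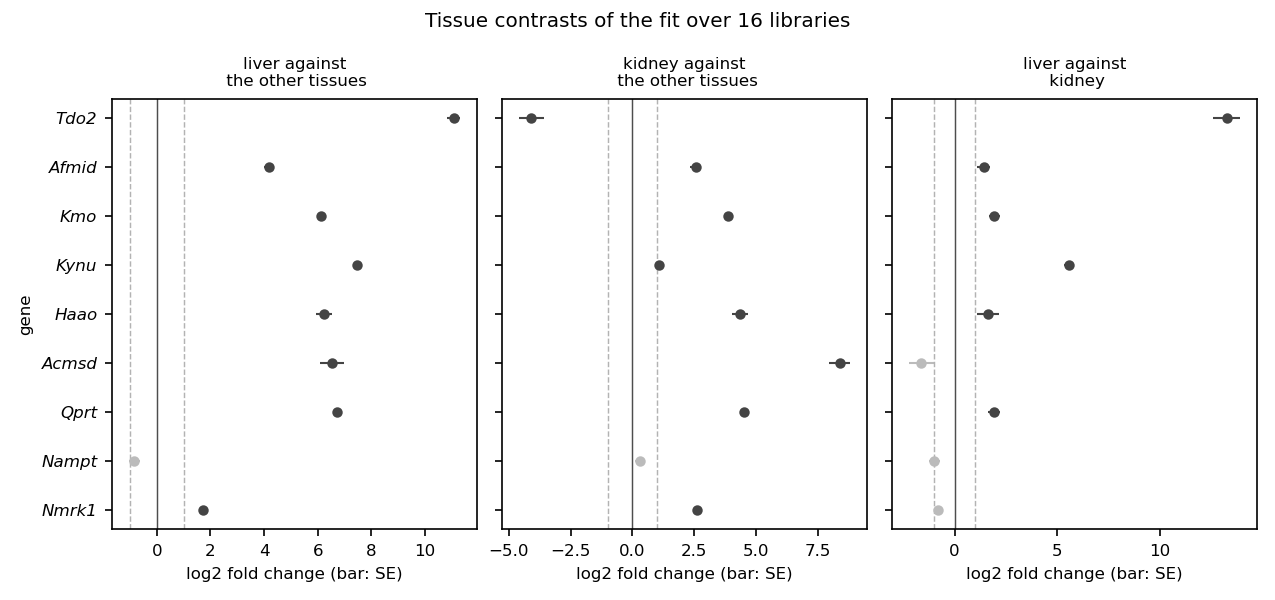
Log2 fold change (points) with standard error (bars) of 9 genes for liver against the other 7 tissues, kidney against the other 7 and liver against kidney, from the edgeR fit of 16 libraries, with dashed lines at the threshold of 1 and grey points for genes not called. Nmrk2 is left out because it is near 0 counts in most tissues. Tdo2 lies at 11.06 for liver and at -4.09 for kidney, where it had 11 and 5 counts. The points of Acmsd, such as 8.39 for kidney, are not exact in size because 6 tissues held 0 to 21 counts.

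The pattern over the 16 libraries was compared with that of 14903 genes by Pearson's r of log2(CPM + 1), as a description over libraries that share 2 pools of mice. Among the genes nearest to Tdo2 were Tat, which degrades tyrosine (r = 0.993), and Hal, which degrades histidine (0.992). Kmo and Haao were nearest to each other (0.992), and Afmid was nearest to Qprt (0.966) and Kmo (0.965). Acmsd was nearest to Gm27216 (0.983), the phosphate and urate transporter Slc17a3 (0.978) and Olfm3 (0.977), and Qprt to AC132455.2 (0.981). Kynu was nearest to Hs3st3b1 (0.960), a sulfotransferase of heparan sulfate. Nampt was nearest to the mitochondrial genes Idh3g (0.960), Mrps36 (0.949) and Pdha1 (0.945). Nmrk1 was nearest to Acp6 (0.953). The closest genes to Nmrk2 were AC138790.3 (0.910), the myogenic factor Myod1 (0.899) and Fzd9 (0.899). In muscle Myod1 had 14.4 CPM fed and 2.81 CPM fasting, and Fzd9 had 21.6 and 6.63 CPM.

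Other genes of these pathways were described from 4 lists in the same way, beside the 10.2% higher and 13.3% lower of all pairs. Among 10 further genes of the kynurenine side, 57 pairs of gene and tissue reached 1 CPM, with 7 (12.3%) called higher and 6 (10.5%) lower in fasting, near the shares of all genes. Kyat1, a kynurenine aminotransferase, went from 141 to 64.3 CPM in liver (log2 -1.14). Among 8 genes of other tryptophan use, 43 pairs reached 1 CPM, with 8 (18.6%) higher and 7 (16.3%) lower. Ddc, the decarboxylase of aromatic amino acids, was at 118 and 56.0 CPM in liver (log2 -1.07) and at 1.03 and 15.0 CPM in white adipose (log2 3.85), the same directions as Haao in those tissues. The amino acid transporter Slc7a8 had 6.02 CPM in fed and 57.4 CPM in fasting brown adipose (log2 3.25), and 11.05 and 24.3 CPM in muscle (log2 1.14). The related Slc7a5 had 6.05 and 18.0 CPM in white adipose (log2 1.57). The white adipose values of Ddc and Slc7a5 come from the library in which Epcam went from 1.16 to 59.7 CPM and Lrp2 from 34.9 to 710 CPM, and the part of epithelial RNA in them was not tested.

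Among 11 further NAD enzymes and carriers, 76 pairs reached 1 CPM, with 13 (17.1%) called higher and 4 (5.26%) lower. Nnmt, which methylates nicotinamide and so removes it from salvage, was at 30.4 CPM in fed and 155 CPM in fasting liver (log2 2.35), and at 159 and 41.5 CPM in white adipose (log2 -1.94). The white adipose value comes from the library in which 7 of 8 multiciliated epithelium genes were higher. Of the 4 adipocyte markers 1, Plin1, was lower there, at 2021 and 746 CPM, and the sums were 12447 and 12312.5 CPM. The part of these cells in the value of Nnmt was not tested. Slc25a51, the mitochondrial NAD carrier, was at 52.6 and 119 CPM in liver (log2 1.18). Aox1, an oxidase that also acts on nicotinamide derivatives, was at 64.4 and 176 CPM in heart (log2 1.45). It was also called higher in muscle, brown adipose and spleen, and lower in liver, at 272 and 144 CPM (log2 -0.92). Of 86 pairs of the 12 NAD users, which are sirtuins, PARPs and NAD glycohydrolases, 0 were called higher and 4 (4.65%) lower, and the lower ones lay between -0.63 and -0.52 (Sirt1 and Sirt4 in liver, Sirt3 in muscle and Sirt6 in brown adipose).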

How the data were processed

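Short-read RNA-Seq of 8 tissues under 2 treatments gave 16 libraries of pooled tissue, grouped by the sample labels. The 10 genes and all gene lists were chosen with earlier results of these data known.

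The authors trimmed the reads of strand-specific libraries (fastp 0.23.2) and examined their quality (FastQC 0.11.8). After alignment to GRCm38 (HISAT2 2.2.1.0), featureCounts from Subread 2.0 assigned them to genes of GENCODE release 24. The authors deposited these counts per gene without normalization, with the gene length as another value. The strand setting and whether reads or pairs were counted are not given in the sources used here. Library totals were 14245178 to 36069968.

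Symbols came from GENCODE release 21, which matched 55144 of 55385 genes without the version. CPM was taken on library totals, with a pseudocount of 0.01 and a log2 threshold of 0.5 as in the study's methods, and no test was run on fasting against fed. Tissues were compared with edgeR 4.0.16 in R 4.3.3 (TMM, filterByExpr, quasi-likelihood test, 7 residual degrees of freedom), whose common coefficient of variation was 0.219. On simulated counts for liver against the other tissues, this fit recovered 173 of 200 genes changed 4-fold with 1 false call among 21517 genes. Apart from those 200 genes in liver, the simulated level of a gene was the same in all tissues and treatments. The real tissues differ in many more genes, so the number of false calls does not carry over to them. The remaining work ran in Python 3.11.15 with pandas 2.3.3, numpy 2.4.6, matplotlib 3.10.9 and scipy 1.17.1.

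Besides the 10 genes, genes of the other lists were named at 10 CPM or more and a log2 fold change above 1 in size, at most 3 per list and tissue, and those most like each gene were drawn from the 3 with the highest r. A few genes and sequences that these rules select are not reported here. The NAD users, Lrp2, Kap, Alb, Epcam and Fabp4 were named, and Aox1 outside heart was described, after their values were seen. Alternatives were TMM and DESeq2 1.42.0 size factors, totals without the 10 highest genes, a pseudocount of 1, a minimum of 10 CPM or none, a log2 threshold of 1, and, for tissues, library totals without TMM, no filter, no treatment term, the Wald test of DESeq2 and each of the 6 tissues other than liver and kidney left out in turn.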

Additional observations from a re-analysis of the deposited data

Results flagged for a closer look

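Among genes at 10 CPM or more in the tissues concerned, Kmo and Haao were called in opposite directions in 2 tissues. Kmo was higher in fasting white adipose, at 0.71 on the log2 scale, and lower in fasting lung, at -0.89. Haao was lower in fasting liver, at -1.09, and higher in fasting white adipose, at 2.37. With 1 library per tissue and treatment, the difference between the tissues was not tested in either case. For both genes the higher value is in the fasting white adipose library, in which 7 of 8 multiciliated epithelium genes were also higher, and the part of that RNA was not tested.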

How the results depend on the processing

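With 1 library per tissue and treatment, the fasting values have no replicate error, and genes near 1 CPM rest on few counts. Counts per gene do not separate isoforms. No paired analysis by replicate number was possible because every group has replicate number 1 alone. The fed and the fasting library pair by tissue, and the fit across tissues has both tissue and treatment as terms. Its fasting effect was not tested, since the genes were chosen on that contrast. Of 240 alternative values of the fasting log2 fold changes, 215 moved by less than the counting interval, 25 moved further and no called value changed sign. The calls, 12 higher and 12 lower, became 7 and 6 at a minimum of 10 CPM (all genes 7.31% and 8.67%), 20 and 18 with no minimum (21.3% and 23.2%), and 4 and 5 at a log2 threshold of 1 (3.94% and 3.80%). With TMM or DESeq2 size factors they were 13 and 10 (11.2% and 11.9% of all genes, or 10.9% and 12.2%): Tdo2 in lung was gained (0.53 and 0.52), and Haao in lung (-0.48 and -0.49) and Qprt in kidney (-0.49 and -0.48) were lost. TMM moved the median of all genes in liver from -0.13 to 0.00 and in white adipose from 0.07 to -0.05. With TMM, Haao in liver was at -0.96 and Tdo2 at 0.85. With a pseudocount of 1 CPM, Afmid, Kmo and Qprt in muscle were no longer called, and Tdo2 in heart was at 0.92. For liver against the other tissues, 1 gene was lower with total counts alone (Nampt, -1.58) and 7 in place of 8 were higher, without Nmrk1 (0.96). The lower genes were 0 to 1 when a tissue was left out, with 1 without spleen or without lung. For kidney, DESeq2 called 2 lower, and leaving out 1 of the 6 tissues other than liver and kidney gave 6 to 7 higher. Liver and kidney were not left out of any fit. In place of 0, the genes lower in liver than in kidney numbered 1 by DESeq2, 3 with total counts alone, 2 without a filter, 2 without a treatment term, and 0 to 1 when a tissue was left out, with 1 without white or without brown adipose. With total counts alone the higher genes fell from 6 to 4, without Afmid (0.70) and Haao (0.92). Of 300 alternative values of the tissue contrasts, 279 kept their direction and side of the threshold, 14 passed it and 7 no longer did. The causes were not tested.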
